A study of Mus musculus with 60 samples.

Results

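The collagens and leptomeningeal matrix genes are 52 of the 18088 genes measured in the prefrontal cortex of young mice. They comprise every gene whose symbol has the form of a collagen chain, which gave 44 genes, and 8 partners of collagen: Lum, Dcn, Ogn, Bgn, Fmod, Aspn, Fn1 and Pcolce. RNA sequencing was done on 60 mice of the C57BL/6J strain in 12 groups of 5 libraries. Mice were wild type (WT) or heterozygous for the N2373K allele of Chd8 (Chd8+/N2373K, called Het), a chromatin remodeler gene tied to autism. Each genotype received vehicle, the serotonin reuptake inhibitor fluoxetine or the mood stabilizer lithium, and each of these 6 arms held 5 male and 5 female libraries. Dosing was through the milk of the dam over 3 weeks, from postnatal day 3 to 24, and all mice were analysed at postnatal day 25. All 12 groups, vehicle included, are thus young mice of the same age. The labels name no dam or litter and no dose, so mice of a group may be littermates, and a p-value reflects the spread among the libraries of a group, whatever its source.

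Collagens are trimers of chains wound into a triple helix. Fibrillar collagens bundle into the tensile fibres of connective tissue, collagen IV forms the meshwork of basement membranes, and other classes decorate fibres, span membranes or anchor sheets. The brain parenchyma holds little fibrillar collagen. Most of it is made by fibroblasts of the leptomeninges, the pia and arachnoid that cover the cortex, and by fibroblasts around larger vessels, whereas endothelial and mural cells make the collagen IV of the vessel wall. Small leucine-rich proteoglycans such as lumican and decorin bind fibrils and set their spacing.

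Promoter sequence is shown for 5 members: 4 that were lower after fluoxetine in Het mice (Col3a1, Col27a1, Col6a3 and Col11a2) and Fmod, which was not called there and fell with lithium. RefSeq promoter windows on GRCm38.p6 were matched by symbol for 40 of the 52 members, in 43 windows. Printed are the 250 bases before the start of the gene, 5′ to 3′ on the strand of the gene. None of these 5 stretches overlapped an annotated exon. Capitals mark matches on either strand to the TATA box TATAAA, to the CAAT box CCAAT, to the GC box GGGCGG, to the AP-1 motif TGACTCA or to AGAACA, the core of the element bound by the glucocorticoid receptor. Col3a1 lies at chr1:45311288-45311537 on the plus strand, Col27a1 at chr4:63215162-63215411 on the plus strand, Col6a3 at chr1:90843972-90844221 on the minus strand, Col11a2 at chr17:34038888-34039137 on the plus strand and Fmod at chr1:134037004-134037253 on the plus strand.
Col3a1: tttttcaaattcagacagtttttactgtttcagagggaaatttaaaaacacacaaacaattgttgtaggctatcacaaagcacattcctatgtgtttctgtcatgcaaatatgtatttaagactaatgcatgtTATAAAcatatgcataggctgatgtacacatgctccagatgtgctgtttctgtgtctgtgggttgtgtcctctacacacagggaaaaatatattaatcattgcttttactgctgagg
Col27a1: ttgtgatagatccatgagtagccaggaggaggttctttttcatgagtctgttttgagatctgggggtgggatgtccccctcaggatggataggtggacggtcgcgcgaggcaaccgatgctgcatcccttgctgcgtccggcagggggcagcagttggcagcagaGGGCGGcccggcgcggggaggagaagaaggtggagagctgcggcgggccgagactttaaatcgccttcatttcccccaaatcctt
Col6a3: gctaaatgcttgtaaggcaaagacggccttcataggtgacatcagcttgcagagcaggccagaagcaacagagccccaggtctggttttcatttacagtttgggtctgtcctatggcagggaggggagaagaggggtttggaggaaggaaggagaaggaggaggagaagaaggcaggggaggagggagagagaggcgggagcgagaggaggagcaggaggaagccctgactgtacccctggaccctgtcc
Col11a2: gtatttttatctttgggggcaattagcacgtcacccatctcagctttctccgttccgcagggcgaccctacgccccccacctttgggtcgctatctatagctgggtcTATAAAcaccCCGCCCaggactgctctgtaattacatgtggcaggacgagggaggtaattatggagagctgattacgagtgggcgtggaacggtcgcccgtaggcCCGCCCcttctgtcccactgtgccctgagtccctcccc
Fmod: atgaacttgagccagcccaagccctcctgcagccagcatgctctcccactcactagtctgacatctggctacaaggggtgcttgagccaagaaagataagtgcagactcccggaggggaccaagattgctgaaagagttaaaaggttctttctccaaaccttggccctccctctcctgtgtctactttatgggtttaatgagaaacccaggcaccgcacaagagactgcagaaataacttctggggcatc

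The Col3a1 window held TATAAA beginning 117 bases before the start, and the Col27a1 window held GGGCGG beginning 85 bases before it. The Col11a2 window held TATAAA at 143 bases and 2 copies of GGGCGG on the opposite strand. The windows of Col6a3 and Fmod matched none of the 5 motifs in these letters. Over all member windows, GGGCGG was present in 55.81%, against 32.74% of all 32851 windows in the table. TATAAA was present in 16.28% of member windows and 12.37% of all windows, CCAAT in 32.56% and 33.85%, TGACTCA in 2.326% and 4.463%, and AGAACA in 6.977% and 16.09%. These shares are descriptions of letters, not of bound sites.

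The libraries held 24.05 to 31.65 M reads. Chd8 ranged from 2950.6 to 3284.9 normalized counts in the 30 WT libraries and from 2421 to 3072.1 in the 30 Het libraries, so the ranges overlapped. Markers of cortical neurons were high throughout, with the vesicular glutamate transporter gene Slc17a7 between 34168.7 and 54206.2. Markers of neighbouring regions stood apart in some libraries. On a score that averages the centred log2 values of a marker list, 16 libraries were above 1 for the olfactory bulb and 12 were above 1 for the striatum or choroid plexus. Of the 16, the Het vehicle males held 3, the Het fluoxetine males 2, the Het vehicle females 2 and the Het fluoxetine females 3. Counts of called members that these libraries moved by over 1.5 times are given with and without them. The shares of all genes called without them are not given, so those counts are not read as results about the members alone. The part of region markers in the results was not tested.

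All 52 members passed the filter on low values, a normalized count of at least 10 in at least 5 libraries. Normalized counts, which are reads scaled to the depth of the library, were divided by the total exon length to compare levels between genes. On this scale the beaded-filament chain Col6a1 was highest at 664 per kilobase, followed by the basement membrane chains Col4a2 at 421 and Col4a1 at 385. Lowest were Col4a3 at 1.72, Col6a6 at 1.99 and Col4a4 at 2.62. The markers of leptomeningeal fibroblasts lay between, with Dcn at 80.4, Col1a1 at 78.6, Col3a1 at 44.8 and Lum at 33.5 per kilobase. None of these 4 was at 0 in any library, and their levels moved together across libraries, as described below.

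The clearest change in the matrix genes was in Het mice given fluoxetine. Averaged over both sexes, 32 of 52 members fell and 0 rose against Het vehicle mice, with a median log2 difference of −0.37 over the 52 members and 0.01 over all genes tested. Another 2 members had an unadjusted p under 0.05. In this comparison 32.9% of all genes were called, 16% of them lower and 16.9% higher. A gene was called when its adjusted p from limma, with Benjamini-Hochberg adjustment over all 17807 genes tested, was under 0.05. Differences are on the scale of log2(normalized count + 1) and are given ± SE.

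Fibrillar collagens, the largest class, took part in this fall. Of 11 fibrillar chains, 9 fell, and the median of the 11 was −0.51. Col3a1, the homotrimeric fibrillar collagen of elastic connective tissue, was measured at 495, 628, 497, 621 and 489 normalized counts in the 5 Het vehicle males, and at 627, 421, 192, 339.9 and 254 in the 5 Het fluoxetine males. In Het females it was 527, 367, 581, 637 and 439 with vehicle, and 455, 270.1, 235, 219 and 266 with fluoxetine. In each sex most fluoxetine libraries lay below every vehicle library, and the first replicate of either sex stood above its group, so the groups overlapped. The difference was −0.76 ± 0.16 (limma adjusted p = 0.000186, n = 10 and 10), and 9 of 10 fluoxetine libraries were below the vehicle mean of their sex.

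Col1a1, which encodes the main chain of type I collagen, was 693, 596, 489, 786 and 608 in Het vehicle males and 741, 404, 309.7, 362 and 279.6 in Het fluoxetine males. In females it was 679, 356, 652, 669.8 and 434 with vehicle and 513, 334, 319, 329.8 and 282 with fluoxetine. As for Col3a1, 4 of 5 fluoxetine libraries of each sex lay below all vehicle libraries of that sex and replicate 1 did not. Col1a1 fell by 0.65 ± 0.15 on the log2 scale (limma adjusted p = 0.000714). Its partner chain Col1a2 fell by 0.45 ± 0.11 (limma adjusted p = 0.00171). The cartilage-type chain Col27a1 fell by 0.77 ± 0.15 (limma adjusted p = 0.000106), from a median of 255 to a median of 149. Col5a1, Col5a2, Col11a1 and Col11a2, chains of the minor fibrils that nucleate or limit the thicker ones, fell by 0.35, 0.51, 0.43 and 0.54, and Col24a1 fell by 0.52. In Het males alone Col5a1, Col5a2, Col11a1 and Col24a1 were at −0.55, −0.66, −0.68 and −0.96 and were called. In Het females alone they were at −0.16, −0.36, −0.18 and −0.08 and were not called. The sex by fluoxetine interaction, given below, called none of them. Col5a3 and Col2a1 were not called, at −0.06 and −0.16.

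**Figure D1:**
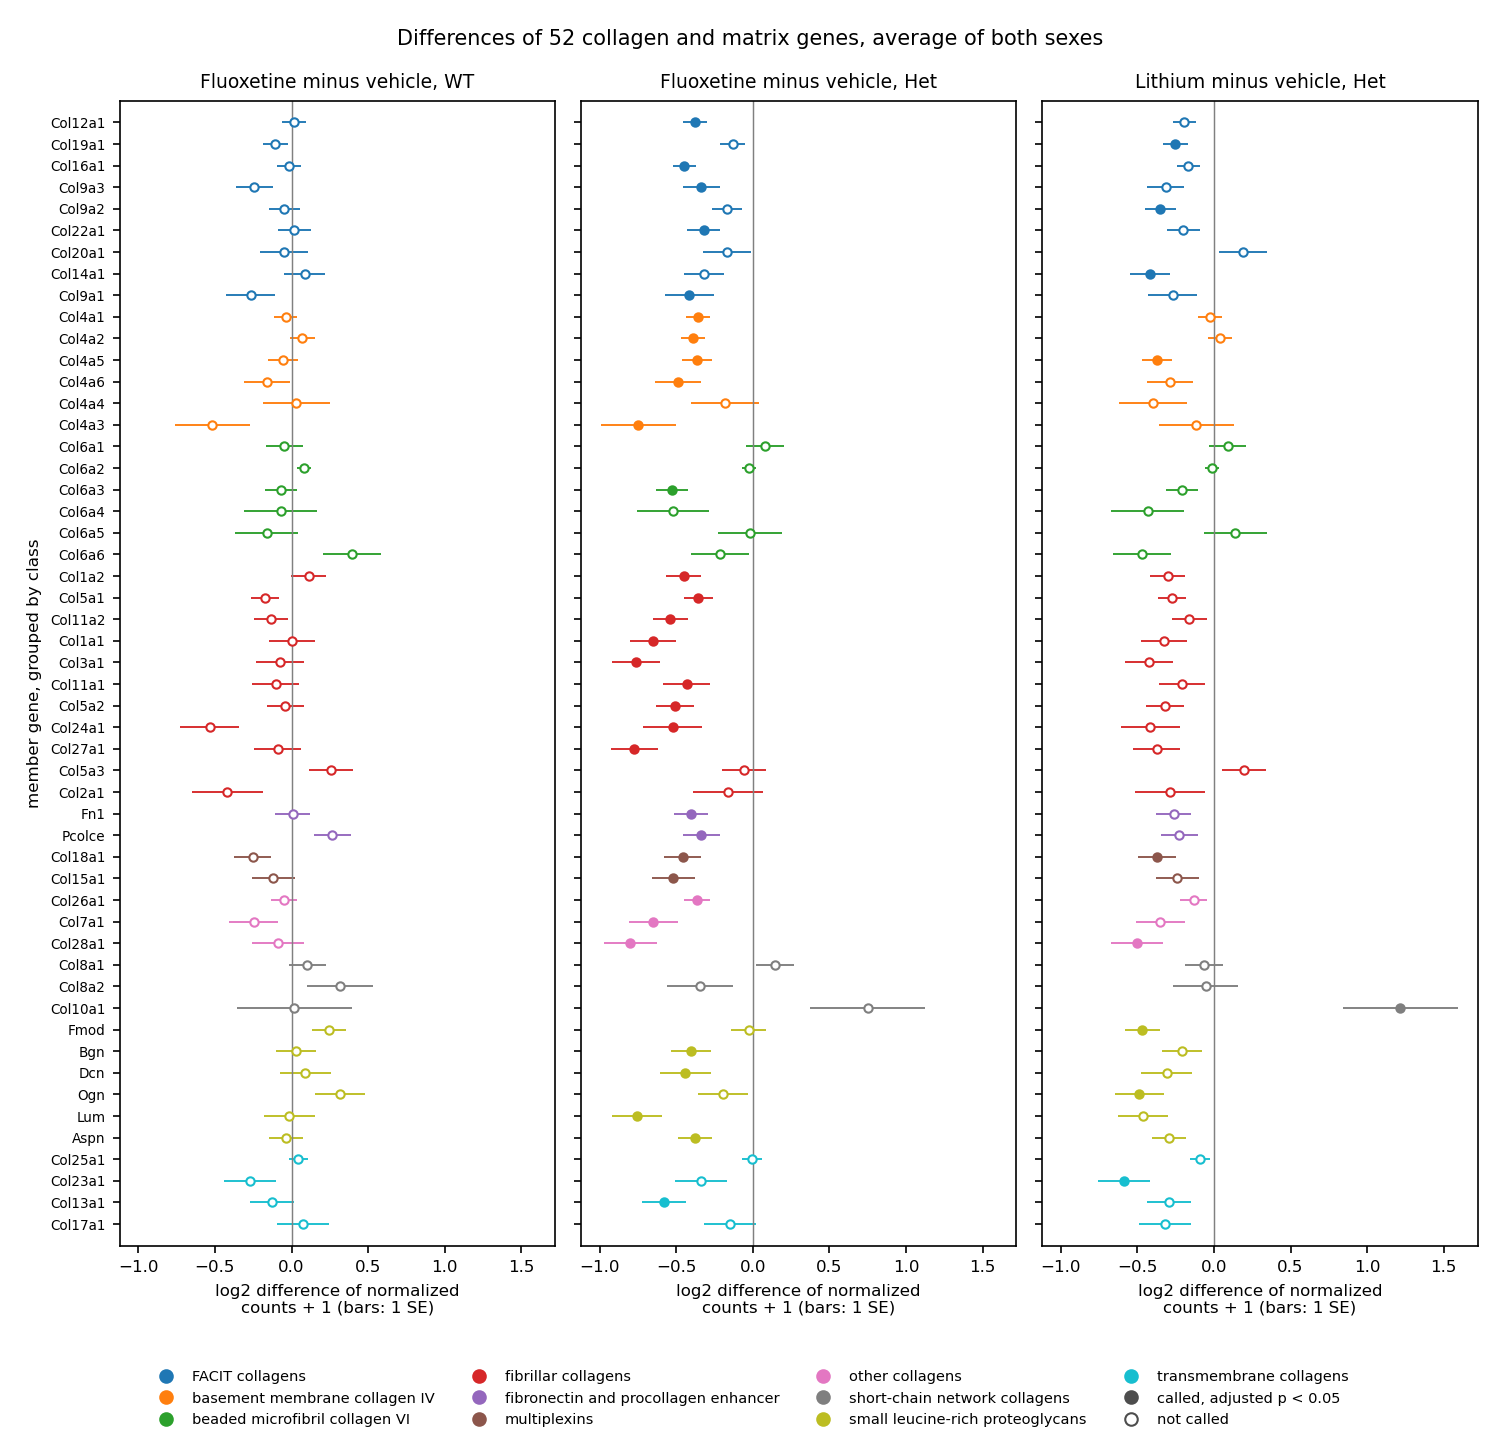
Log2 difference of normalized counts + 1 (horizontal axis, bars show 1 SE) for each of the 52 genes, grouped by class, in 3 comparisons averaged over both sexes; filled points have an adjusted p under 0.05. Filled points are all below 0 for fluoxetine in Het mice (32 genes), absent for fluoxetine in WT mice, and number 10 for lithium in Het mice, of which Col10a1 alone is above 0.

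Basement membrane collagen moved with the fibrillar chains. Of 6 collagen IV genes, 5 fell, with a median of −0.38 over the 6. Col4a2 was 3106, 3370.1, 2927, 3278 and 2531 in Het vehicle males against 2716, 2204, 1999, 2541 and 2194 in Het fluoxetine males. In females it was 2729, 2428, 3334, 3126 and 2489 with vehicle against 2497, 1939, 1948, 2249 and 2080.2 with fluoxetine. All 10 fluoxetine libraries were below the vehicle mean of their sex, and 7 were below all 10 vehicle libraries. Col4a2 fell by 0.39 ± 0.08 (limma adjusted p = 0.000176) and Col4a1, its partner in the classical trimer, by 0.36 ± 0.08 (limma adjusted p = 0.000306). Col4a5 and Col4a6, whose chains form a second trimer, fell by 0.36 and 0.49. Col4a3, the least abundant, fell by 0.75 ± 0.24 (limma adjusted p = 0.0153), and Col4a4 was at −0.18 and was not called.

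The fibril-associated collagens with interrupted helices (FACIT) sit on the surface of fibrils. Of 9 FACIT genes, 5 fell. Col16a1 had the smallest adjusted p of all members (−0.45 ± 0.08, limma adjusted p = 1.12e-05). Its normalized counts in Het vehicle mice were 672, 659, 675, 709.7 and 660.5 in males and 772, 639, 775, 779 and 707 in females. With fluoxetine they were 592, 457, 464, 517 and 528 in males and 610.4, 507, 498, 515 and 486 in females. All 10 fluoxetine libraries lay below all 10 vehicle libraries. No other member separated the 2 arms completely. The share of all genes that separated these arms was not computed, so the separation is not read as a trait of the members. Col12a1, which links fibrils to the surrounding matrix, was 1015, 1006, 945, 1064 and 917 in Het vehicle males and 714, 750.1, 618, 744 and 684 in Het fluoxetine males, with no overlap. In females it was 810.3, 773, 716, 894 and 984 with vehicle and 899, 600.2, 685, 609 and 717 with fluoxetine, with replicates 1 and 5 of the fluoxetine group within the vehicle range (−0.38 ± 0.08, limma adjusted p = 0.000131). Col22a1, Col9a1 and Col9a3 fell by 0.32, 0.41 and 0.34.

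Both multiplexins fell, Col15a1 by 0.52 ± 0.14 and Col18a1, the precursor of endostatin, by 0.46 ± 0.12 (limma adjusted p = 0.00335 and 0.00304). All 3 collagens of no larger class fell as well: Col28a1 by 0.80 ± 0.17, Col7a1, the anchoring fibril chain of skin, by 0.65 ± 0.16, and Col26a1 by 0.36 ± 0.09. Among 6 collagen VI genes only Col6a3 fell, by 0.52 ± 0.10 (limma adjusted p = 0.000111), from a median of 173 to a median of 114 normalized counts. The abundant Col6a1 and Col6a2 were at 0.08 and −0.03 and were not called. Of 4 transmembrane collagens, Col13a1 fell by 0.58 ± 0.14 (limma adjusted p = 0.00152), while Col25a1, a collagen of neurons, was at −0.01 and was not called. None of the 3 short-chain network collagens was called.

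Of the 6 small leucine-rich proteoglycans, 4 fell. Lum, which encodes lumican, was 86.5, 80.3, 124, 109.9 and 116 in Het vehicle males and 127, 99.1, 49, 48.6 and 43.8 in Het fluoxetine males. In females it was 122, 50.8, 125, 116 and 82.1 with vehicle and 58.8, 37.8, 51.3, 51.7 and 51.8 with fluoxetine. The female fluoxetine values were all below 60, the female vehicle values were above it but for 1 library, and 2 of the male fluoxetine libraries lay within the vehicle range or above it. Lum fell by 0.76 ± 0.16 (limma adjusted p = 0.000347). Dcn, which encodes decorin, was 537, 429, 481, 533 and 485 in Het vehicle males and 790.3, 409, 293, 331 and 299 in Het fluoxetine males. In females it was 691, 283, 549, 725 and 477 with vehicle and 485, 351, 267, 385 and 305 with fluoxetine. The highest Dcn value of both arms was thus in a fluoxetine male, and 9 of 10 fluoxetine libraries were below the vehicle mean of their sex. Dcn fell by 0.44 ± 0.17 (limma adjusted p = 0.0361). Bgn and Aspn fell by 0.40 and 0.38. Fmod, which encodes fibromodulin, was at −0.03 ± 0.11 and Ogn at −0.19 ± 0.16, neither called. Fn1, the fibronectin gene, and Pcolce, which enhances the cleavage of fibrillar procollagens, fell by 0.40 ± 0.11 and 0.33 ± 0.12 (limma adjusted p = 0.00485 and 0.0287).

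**Figure D2:**
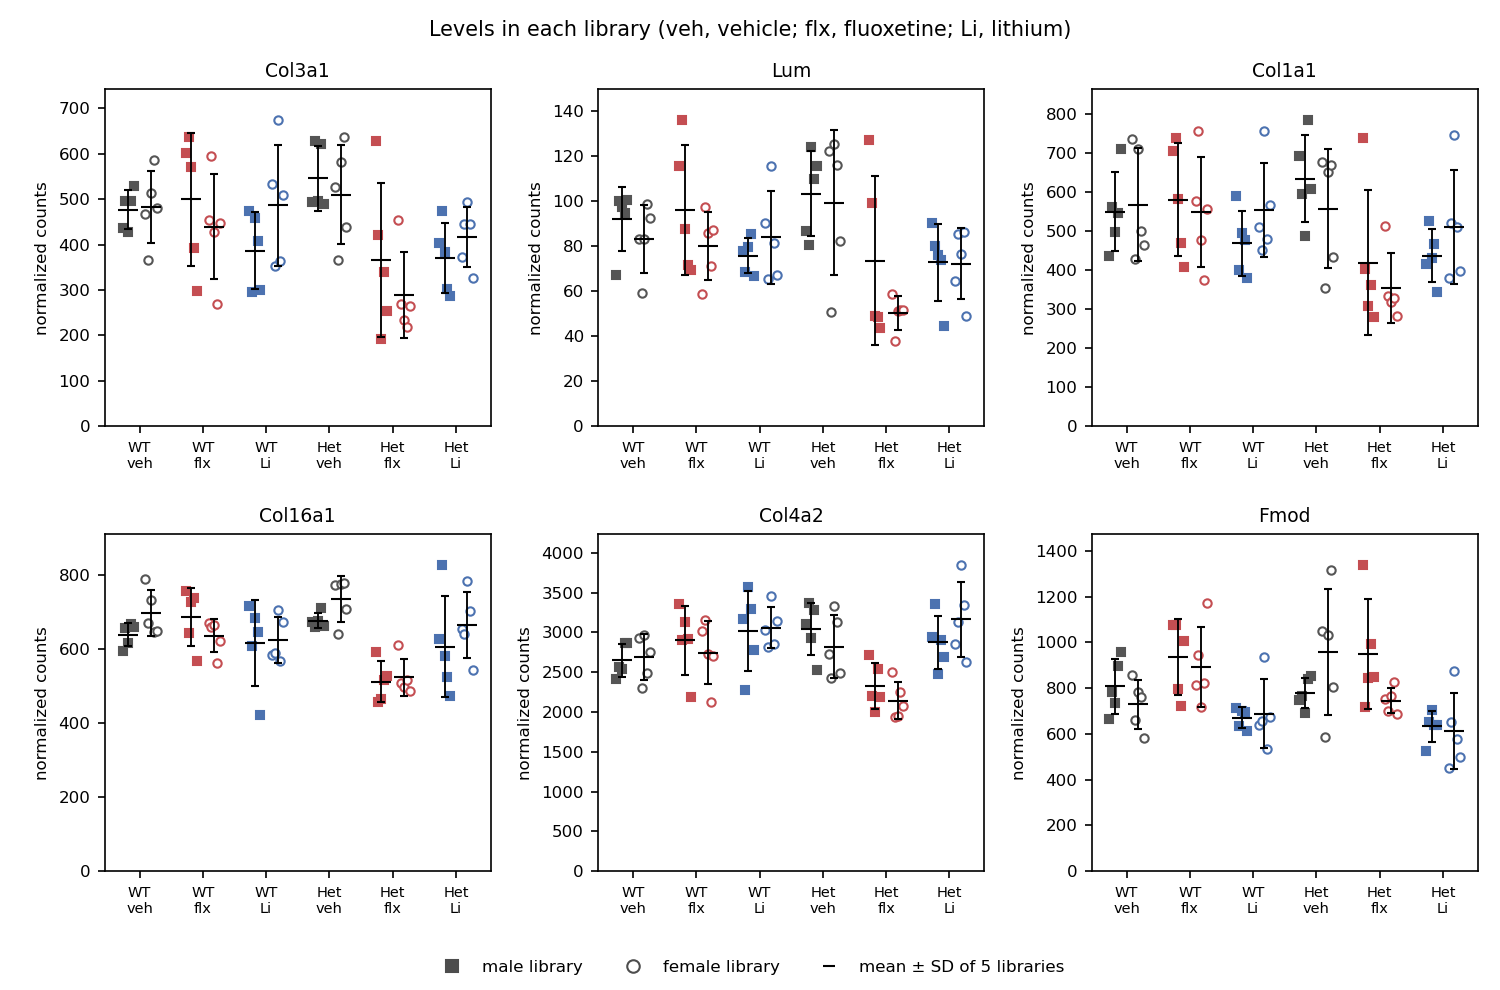
Normalized counts (vertical axes, from 0) of 6 genes in all 60 libraries, by genotype and treatment; squares are males, open circles are females, and black marks are the mean ± SD of 5 libraries. Col16a1 in the Het fluoxetine libraries lies between 457 and 610.4, below the Het vehicle libraries at 639 to 779, and Fmod in the Het lithium libraries lies between 453 and 877.

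The fall was present in each sex when taken alone. In males 19 members fell and 0 rose, with 10.7% of all genes called lower. In females 16 fell and 0 rose, with 8.04% of all genes called lower. The medians were −0.37 and −0.39. The 7 genes called in both sexes were Col11a2, Col16a1, Col1a1, Col3a1, Col4a1, Col4a2 and Col6a3, which is 36.8% of the male calls and 43.8% of the female calls. Over all genes called lower these shares were 37.8% and 50.3%, so the overlap of calls was no larger among the members. Of the 52 members 76.9% were lower in both sexes, against 33.9% of all genes. The smallest adjusted p in males belonged to Col12a1 (−0.50 ± 0.11, limma adjusted p = 0.000873), followed by Col27a1, Col5a1, Col11a2, Col7a1 and Col5a2 at −0.98, −0.55, −0.62, −0.89 and −0.66. In females it belonged to Col16a1 (−0.49 ± 0.11, limma adjusted p = 0.00146), followed by Col28a1, Col6a3, Lum, Col13a1 and Col3a1 at −1.01, −0.60, −0.91, −0.77 and −0.84. The difference between sexes was tested by the sex by fluoxetine interaction, in which limma called 0 members and 0 genes of the whole table, with 3 members at an unadjusted p under 0.05. The edgeR and DESeq2 tests on recovered reads also called 0 members in it. Leaving out a single library gave 9 calls in males without replicate 3 of the Het fluoxetine males and 26 without replicate 1 of that group, and 6 calls in females without replicate 3 of the Het vehicle females and 25 without replicate 2 of that group. Without the 16 libraries with high olfactory bulb scores, which left 2 Het vehicle males and 3 Het fluoxetine males, no member was called in males. The share of all genes called in that fit is not given, and whether this loss of calls was particular to the members was not tested. Of the 19 male calls all kept their direction, and the median of the members was −0.28 in place of −0.37. Females kept 11 of their 16 calls among 15 in all, with a median of −0.50 in place of −0.39, and 14 were called in them without the libraries of high striatal or choroid plexus score. The average over both sexes without the 16 libraries called 14 lower, all of them among the 32, with all 32 in the same direction and a median of −0.40.

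In WT mice fluoxetine had no called effect on any member. Averaged over both sexes limma called 0 of 52, against 8.2% of all genes, with 7 members at an unadjusted p under 0.05. The median was −0.04, and edgeR and DESeq2 also called 0. Col3a1 ranged from 366 through 488 to 587 in the 10 WT vehicle libraries and from 269.8 through 452 to 636 in the 10 WT fluoxetine libraries, a difference of −0.07 ± 0.16. Lum, Col1a1 and Dcn differed by −0.01, 0.00 and 0.09. The smallest adjusted p was for Col24a1, at −0.53 (limma adjusted p = 0.0718). In single sexes limma called 0 members as well, against 1.34% of all genes in males and 2.5% in females, with 2 and 4 members at an unadjusted p under 0.05. The edgeR and DESeq2 tests called 0 in each.

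Whether the response to fluoxetine differed between genotypes was tested by the genotype by fluoxetine interaction. Here 3 members were called, all more negative in Het mice, against 0.977% of all genes called in that direction. Col4a2 had an interaction of −0.46 ± 0.11 and Col16a1 of −0.43 ± 0.11 (both limma adjusted p = 0.0313), and Col12a1 of −0.39 ± 0.11 (limma adjusted p = 0.0431). In WT mice Col4a2 was 2307 to 2963 with vehicle and 2121 to 3353 with fluoxetine, Col16a1 was 595 to 789 and 562 to 757, and Col12a1 was 831 to 1077 and 761 to 1091. For each of the 3 genes these WT ranges overlapped. The interactions of Lum, Col3a1, Col1a1 and Dcn were −0.74 ± 0.23, −0.69 ± 0.22, −0.66 ± 0.21 and −0.53 ± 0.24 and did not pass (limma adjusted p = 0.0677, 0.0743, 0.0745 and 0.185). For these 4 genes a different response in the genotypes was therefore not shown. The count of 3 became 0 without the libraries with high olfactory bulb scores, and 0 without those with high striatal or choroid plexus scores, while the median interaction of the members was −0.34 and −0.32 there, against −0.33 over all libraries. It also became 0 with the leptomeningeal or the glucocorticoid score as a covariate, with medians of −0.13 and −0.20. Leaving out a single library gave 0 to 14 calls, with the highest count without replicate 5 of the WT fluoxetine males.

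Het and WT mice were also compared within each treatment. Under vehicle limma called 0 members in the average over both sexes, in males and in females, with 0, 3 and 3 members at an unadjusted p under 0.05 and 0.0562%, 0.0168% and 0.0225% of all genes called. The edgeR and DESeq2 tests also called 0. The median difference under vehicle was 0.07, and Lum, Col3a1, Col1a1 and Dcn were at 0.18, 0.13, 0.08 and 0.07. Under fluoxetine 14 members were lower in Het than in WT mice and 0 higher, against 3.88% of all genes lower, with a median of −0.32. Those with the smallest adjusted p were Col12a1 (−0.40 ± 0.08, limma adjusted p = 0.00114), Col16a1 (−0.35 ± 0.08), Col1a2 (−0.50 ± 0.11), Col22a1 (−0.45 ± 0.11), Col4a2 (−0.33 ± 0.08), Col26a1 (−0.33 ± 0.09), Col1a1 (−0.57 ± 0.15) and Col3a1 (−0.56 ± 0.16, limma adjusted p = 0.0241). Lum was at −0.56 ± 0.16 (limma adjusted p = 0.0284) and Dcn at −0.46 ± 0.17 and not called. This comparison shares the Het fluoxetine libraries with the one against Het vehicle. Its count was 2 without the libraries with high olfactory bulb scores and 0 without those with high striatal or choroid plexus scores, with medians of −0.31 and −0.26, and all 14 kept their direction in both. Without replicate 1 of the WT fluoxetine males it was 7, and without replicate 5 of that group it was 24. Under lithium limma called 0 members, with 4 at an unadjusted p under 0.05 and 0.0393% of all genes called, and edgeR and DESeq2 called 0.

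Lithium in Het mice gave 10 calls. Averaged over both sexes 9 members fell and 1 rose, against 3.84% of all genes called lower and 5.3% higher, with a median of −0.28. Fmod had the smallest adjusted p (−0.47 ± 0.11, limma adjusted p = 0.00659). It was 749, 764, 692, 840.0 and 852 in Het vehicle males and 525, 654, 707, 640.2 and 639.7 in Het lithium males. In females it was 1048, 586, 1033, 1316 and 805 with vehicle and 453, 654, 877, 579 and 500.1 with lithium. The highest lithium libraries lay within the vehicle range in both sexes. Col4a5, Col9a2, Col23a1, Col14a1, Col19a1, Col18a1, Ogn and Col28a1 fell by 0.25 to 0.59. Col10a1, a hypertrophic cartilage collagen, rose by 1.22 ± 0.38 (limma adjusted p = 0.0316), from a median of 9.54 to a median of 24.3 normalized counts, low values at which few reads decide. In the Het vehicle females its values were 0.957, 28, 5.92, 1.02 and 4.83. This comparison shares the Het vehicle libraries with that of fluoxetine. The members Lum, Col3a1, Col1a1 and Dcn were at −0.46, −0.43, −0.33 and −0.31 and were not called (limma adjusted p = 0.0635, 0.0761, 0.164 and 0.24).

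In single sexes lithium called Col12a1 alone in Het males (−0.39 ± 0.11, limma adjusted p = 0.0434) and Fmod alone in Het females (−0.63 ± 0.16, limma adjusted p = 0.0431), against 0.562% and 0.185% of all genes called lower. Col12a1 kept this call in 4 of 10 fits that left out a library and under 5 of 11 alternatives, and Fmod in 3 of 10 such fits and under 8 of 11. Leaving out replicate 1 of the Het vehicle males gave 2 calls in the average in place of 10. Leaving out the libraries with high olfactory bulb scores gave 3, of which 2 were among the 10. In WT mice lithium called 0 members in the average, in males and in females by limma, with 5, 4 and 2 at an unadjusted p under 0.05 and 2.97%, 0.0786% and 0.118% of all genes called. The edgeR test called 0 in each and DESeq2 called 1 in the average and 0 in each sex. In the genotype by lithium interaction limma called 0 members and 0 of all genes, with 2 members at an unadjusted p under 0.05, so a different response in the genotypes was not shown. The sex by lithium and sex by genotype interactions also had 0 members and 0 of all genes called by limma, with 1 and 6 members at an unadjusted p under 0.05. In both of them edgeR and DESeq2 called 0 members, as they did for the genotype by lithium interaction.

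Fluoxetine and lithium were set against each other within each genotype. Their doses are not in the labels. In Het mice 7 members were lower and 1 was higher with fluoxetine than with lithium, against 12.6% of all genes lower and 12.4% higher, so the share of members that were lower was near that of all genes. Smallest in adjusted p were basement membrane chains, with Col4a2 at −0.43 ± 0.08 (limma adjusted p = 5.33e-05) and Col4a1 at −0.33 ± 0.08 (limma adjusted p = 0.000973). Col4a2 was between 1939 and 2716 in Het fluoxetine libraries and between 2473 and 3849.5 in Het lithium libraries. Col16a1, Col11a2, Col6a3, Col26a1 and Col27a1 differed by −0.28, −0.38, −0.32, −0.23 and −0.40. Col26a1 and Col27a1 each kept the call in 8 of 20 fits that left out a library, and lost it under 7 and 4 of 11 alternatives. The higher gene was Fmod, at 0.44 ± 0.11 (limma adjusted p = 0.00295). Fmod was also higher with fluoxetine in WT mice, at 0.42 ± 0.11 (limma adjusted p = 0.0129), where it was the only member called and 2.95% of all genes were higher. Its WT medians were 773 with vehicle, 885 with fluoxetine and 666 with lithium, and neither drug differed from vehicle there (0.24 and −0.18, limma adjusted p = 0.178 and 0.433). Col4a2, Col4a1 and Fmod kept these calls in Het mice under all 11 alternative settings. For males against females, averaged over genotypes and treatments, limma called 0 members, against 0.14% of all genes, with 2 members at an unadjusted p under 0.05, and edgeR and DESeq2 called 0.

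Genes that make, bind or surround collagen were described in the same comparison of fluoxetine with vehicle in Het mice. The counts that follow stand beside 16% of all genes lower and 16.9% higher in that comparison. Of 32 genes for the synthesis and crosslinking of collagen, 13 fell and 3 rose. The prolyl hydroxylase genes P3h1 and P3h3 fell by 0.35 ± 0.07 and 0.39 ± 0.08, and Adamts2, which removes the amino propeptide of procollagen, rose by 0.54 ± 0.12 (limma adjusted p = 7.39e-05, 0.000144 and 0.000275). Of 10 collagen receptor genes, 4 fell and 1 rose, among them the discoidin receptor gene Ddr2 at −0.51 ± 0.09 and the integrin genes Itga1 and Itgb1 at −0.39 ± 0.09 and −0.23 ± 0.05. Of 15 genes for laminins and other basement membrane proteins, 12 fell and 1 rose. Lama4 fell by 0.60 ± 0.09, Hspg2, the perlecan gene, by 0.82 ± 0.13, and Agrn by 0.28 ± 0.05 (limma adjusted p = 2.5e-06, 4.88e-06 and 1.33e-05). Of 20 elastic fibre and matricellular genes, 10 fell and 0 rose, with Tnc, Thbs1 and Fbn1 at −0.83, −0.72 and −0.30. Of 16 genes of transforming growth factor beta signaling, 5 fell and 2 rose, and Ltbp4, Smad7 and Tgfb1 fell by 0.41, 0.35 and 0.44. Among matrix proteases and their inhibitors 2 of 11 were lower and 2 higher, shares near those of all genes, and the higher ones were the inhibitor genes Timp4 and Timp2 at 0.48 and 0.23. The medians of these 6 lists were −0.13, −0.13, −0.46, −0.28, −0.14 and 0.02 in the order given.

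Markers of leptomeningeal fibroblasts that are not members moved with the matrix genes in Het mice. Of 25 such markers 13 fell with fluoxetine and 0 rose, against 16% of all genes lower and 16.9% higher, with a median of −0.39. With lithium 5 fell, against 3.84% of all genes, with a median of −0.31. Their summed normalized counts were 10270.1 to 17728.5 in Het vehicle, 10136.5 to 16028.6 in Het fluoxetine and 9684.87 to 12271 in Het lithium libraries, ranges that overlap. The transporter gene Slc22a6 and the genes Fxyd5 and Ranbp3l led, at −0.69, −0.43 and −0.47 with fluoxetine. Of 14 endothelial markers 8 fell and 1 rose with fluoxetine, and of 12 mural cell markers 4 fell and 0 rose, with Kdr at −0.49 and Notch3 at −0.58. Their medians were −0.24 and −0.18. In bulk tissue fewer cells of a type and less RNA per cell cannot be told apart, so these values do not tell whether less meningeal tissue or less expression was sampled. With the score of the 25 leptomeningeal markers as a covariate, 14 members were lower and 1 higher with fluoxetine in Het mice, and Col16a1, Col27a1, Col6a3, Col12a1, Col4a2, Col3a1, Col11a2 and Col28a1 were among the 14. Col3a1 was then at −0.39 and Col16a1 at −0.34, while Dcn turned to 0.05 (limma adjusted p = 0.767). The 25 markers themselves fell with fluoxetine, so this covariate also removes part of any difference between the treatments. Other tissues differed between arms as well. The 11 olfactory bulb markers had medians of −0.28 with fluoxetine and −0.89 with lithium in Het mice, and their median between Het and WT mice on fluoxetine was 1.23. The 10 choroid plexus markers had a median of −0.13 with fluoxetine in Het mice. Against the same 16.9% of all genes higher and 16% lower, of 8 striatal markers 2 rose there, of 9 myelin markers 1 rose and of 7 markers of border macrophages 2 fell, and of 8 markers of cortical neurons 1 rose and 3 fell. In Het females alone 7 of 9 myelin markers rose, against 7.08% of all genes, with Mobp, Mog and Cldn11 at 1.62, 1.37 and 1.12. Counts over the list of 8 cortical neuron markers are not given for females. The score of that list ran from −0.0903 to 0.1462 in Het vehicle females and from −0.2786 to 0.0039 in Het fluoxetine females, ranges that overlap. The myelin scores of Het females ran from −1.66 to 0.53 with vehicle, lowest in replicate 3, and from 0.0047 to 0.85 with fluoxetine. The part of these tissues in the fall of the matrix genes was not tested beyond the counts given without the libraries concerned. The share of reads on mitochondrially encoded genes was 5.97% to 9.03% in Het vehicle and 6.34% to 8.87% in Het fluoxetine libraries.

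**Figure D3:**
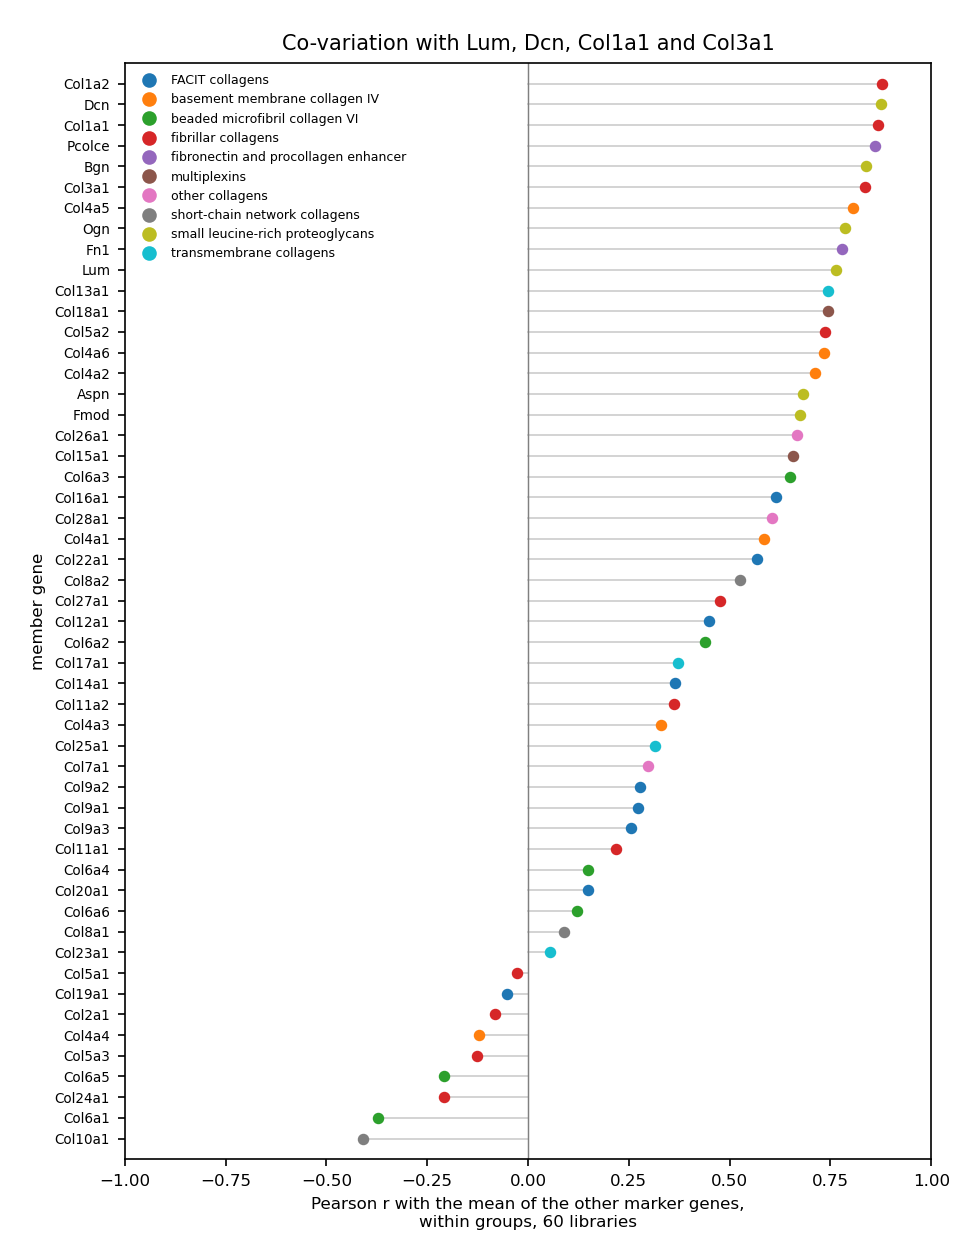
Pearson r (horizontal axis) between the level of each of the 52 genes and the mean of Lum, Dcn, Col1a1 and Col3a1, leaving out the gene itself, across 60 libraries after subtraction of group means; colors mark the class. Values run from −0.409 for Col10a1 to 0.877 for Col1a2.

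Within groups the members differed in how far they followed the leptomeningeal markers. After subtraction of each group mean, 33 of 52 members correlated positively with the mean of Lum, Dcn, Col1a1 and Col3a1 and 2 negatively. Here 17.5% of all genes were called positive and 19.3% negative, by permutation tests with 100000 permutations and Benjamini-Hochberg adjustment over all 17807 genes. The values were permuted across groups as if no group means had been subtracted. These p-values, and those of the later permutation tests, are therefore somewhat too small. The median r was 0.462 over members and −0.017 over all genes. Highest were Col1a2 with r = 0.877 (rho = 0.851), Dcn with r = 0.875 (rho = 0.842) and Col1a1 with r = 0.868 (rho = 0.833). Each had a permutation p of 1e-05 for r and for rho, the smallest that these permutations can give (adjusted p = 0.000116 for r and 0.000157 for rho). Without the 2 libraries farthest from the median these were 0.846, 0.838 and 0.833. The members are not independent of the markers, since all were measured in the same libraries and 4 of them are the markers.

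The ranges of the larger classes overlapped on this measure. The 6 small leucine-rich proteoglycans had r of 0.675 to 0.875, and Fmod and Ogn, which were not called for fluoxetine in Het mice, were among them at 0.675 and 0.785. The fibrillar chains split, from −0.209 for Col24a1 and −0.028 for Col5a1 to 0.877 for Col1a2. Lowest of all were Col10a1 (r = −0.409, rho = −0.334, permutation p = 0.00121 and 0.00967, adjusted p = 0.00555 and 0.0331), Col6a1 (r = −0.372, rho = −0.290, permutation p = 0.0037 and 0.0247, adjusted p = 0.0138 and 0.0694), and Col24a1 and Col6a5, both at −0.209, were not called. Without the 2 farthest libraries Col10a1 and Col6a1 were at −0.252 and −0.167 and no member was called negative, so the negative relations rest on those libraries.

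Members that adjoin on a chromosome were compared in the same way, in 12 pairs, of which 6 had a called relation, all positive, and 6 did not, with r from −0.204 to 0.267. The share of other gene pairs with a called relation is not given, for members that lie apart or for other neighbours. The count of 6 is therefore not read as an effect of position. Col4a1 and Col4a2 are transcribed in opposite directions on chromosome 8 and overlap by 22 bases in the annotation, and their levels had r = 0.884 (rho = 0.877, permutation p = 1e-05 for each, adjusted p over the 12 pairs 3e-05 and 2.4e-05). Col3a1 and Col5a2 on chromosome 1 had r = 0.761 (rho = 0.765) and Dcn and Lum on chromosome 10 had r = 0.753 (rho = 0.722), with the same permutation and adjusted p. Col4a5 and Col4a6, whose starts are 1308 bases apart on the X chromosome, had r = 0.675 (rho = 0.684), again with the same permutation and adjusted p. Col4a3 and Col4a4, with starts 71 bases apart on chromosome 1, had r = −0.094 (rho = 0.015, permutation p = 0.469 and 0.911, adjusted p = 0.563 and 0.911) at low levels. Without the 2 farthest libraries the values were 0.857, 0.781, 0.701, 0.644 and 0.055. Whether the counting used strand is not stated, so reads in the overlap of Col4a1 and Col4a2 could count for either.

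Genes induced by glucocorticoids, the adrenal stress hormones, moved the other way in the same libraries. Of 17 such genes 11 rose and 1 fell with fluoxetine in Het mice, against 16.9% of all genes higher and 16% lower, with a median of 0.41. Fkbp5 rose by 0.97 ± 0.12 and Sgk1 by 0.60 ± 0.08 (limma adjusted p = 3.52e-08 and 2.27e-07). In WT mice 3 rose and 1 fell with fluoxetine, against 3.14% and 5.06% of all genes, with a median of 0.19. In Het mice given lithium 5 rose and 0 fell, against 5.3% and 3.84% of all genes, with a median of 0.23. The mean score of the 17 genes ran from −0.447 to 0.0794 in Het vehicle, −0.185 to 0.465 in Het fluoxetine and −0.161 to 0.322 in WT fluoxetine libraries. Within groups 24 of 52 members correlated negatively with this score and 2 positively, against 17.5% and 18.1% of all genes. Strongest was Col12a1 with r = −0.746 (rho = −0.754), followed by Col15a1 with r = −0.641 (rho = −0.569) and Col3a1 with r = −0.635 (rho = −0.619). The permutation p was 1e-05 for each r and for rho of Col12a1 and Col3a1, and 3e-05 for rho of Col15a1 (adjusted p = 0.000116 for r and 0.000157, 0.000362 and 0.000157 for rho). Without the 2 libraries farthest from the median r was −0.738, −0.578 and −0.595. On the positive side Col5a3 had r = 0.542 (rho = 0.557, permutation p = 2e-05 and 1e-05, adjusted p = 0.000198 and 0.000157), and 0.526 without the 2 farthest libraries.

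**Figure D4:**
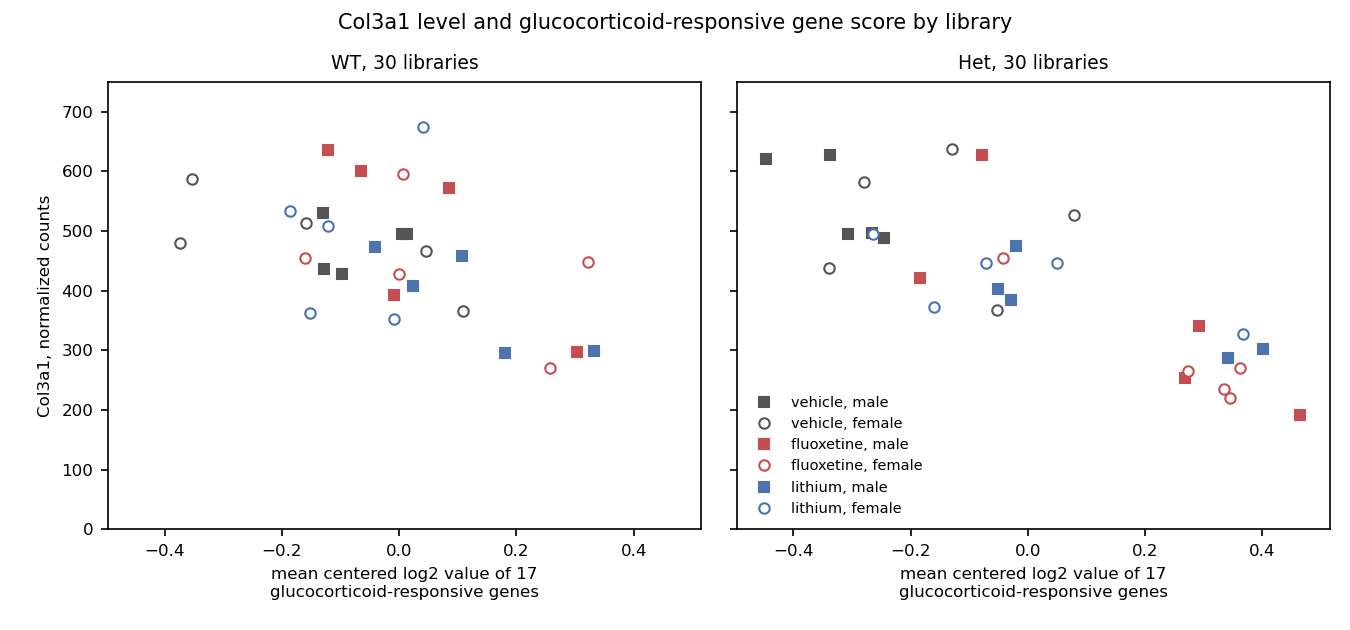
Col3a1 normalized counts (vertical axis) against the mean centred log2 value of 17 glucocorticoid-responsive genes (horizontal axis) in 30 WT and 30 Het libraries; colors mark the treatment, squares are males and open circles are females. Het fluoxetine libraries with scores above 0.2 have Col3a1 counts of 192 to 339.9, and the other 3 have 421, 455 and 627.

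The relation was also computed in WT and in Het libraries apart. Col12a1 had r = −0.817 in the 30 WT libraries (rho = −0.780, permutation p = 1e-05 for both, adjusted p = 0.000545 and 0.000973) and r = −0.698 in the 30 Het libraries (rho = −0.705, permutation p = 1e-05 and 2e-05, adjusted p = 0.000382 and 0.000955). Without the 2 farthest libraries these were −0.802 and −0.700. Col3a1 had r = −0.517 in WT (rho = −0.510, permutation p = 0.00328 and 0.00447, adjusted p = 0.0279 and 0.0439) and r = −0.722 in Het libraries (rho = −0.726, permutation p = 3e-05 and 2e-05, adjusted p = 0.000774 and 0.000955), and −0.382 and −0.716 without the 2 farthest libraries. In WT libraries 7 members were called negative and 1 positive, against 7.67% and 7.89% of all genes, and in Het libraries 21 were called negative and 1 positive, against 10.2% and 11.4%. With the score as a covariate 3 members were called for fluoxetine in Het mice, of which 2, Col16a1 and Col28a1, were among the 32, and Bgn and Col22a1 turned to 0.02 and 0.01 (limma adjusted p = 0.946 and 0.974). The score itself rose with treatment, so this covariate removes part of any difference between the treatments. The part of the glucocorticoid-responsive genes in the fall of the matrix genes was not tested.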

How the data were processed

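RNA of 60 samples of prefrontal cortex was made into stranded mRNA libraries, per the labels' protocols. The build GRCm38 and the tools R 3.6.0, Salmon 0.11.2 and DESeq2 1.19.11 appear in the submitters' processing notes, with no order of steps. The deposited values are a normalized signal: each column steps in whole multiples of the worth of 1 read, and 100% of values came out whole at a tolerance of 0.001, so the deposited values are reads divided by 1 size factor per library (0.818 to 1.0723). In 9 libraries that factor is within 1% of 1. Only 0.09% to 0.22% of their values above 0 are whole as deposited and 100% after division by the step. Depth was 24.05 to 31.65 M reads (median 28.32), and no replicate pair agreed within sampling noise (chi-square per degree of freedom 4.12 to 70). GENCODE M21 named 18077 of 18088 genes.

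Values were taken to log2(value + 1), which understates changes of low genes. Genes with at least 10 in at least 5 libraries (17807) were fitted with limma 3.58.1 (limma-trend, R 4.3.3) as 12 group means with 48 residual degrees of freedom, two-sided, over 25 comparisons, with Benjamini-Hochberg adjustment within each. Drug comparisons share vehicle libraries. Alternatives were quantile normalization, a pseudocount of 8, no filter, a replicate block, marker scores as covariates, fewer libraries or groups, and edgeR 4.0.16 and DESeq2 1.42.0 on the recovered reads. Co-variation was adjusted over all genes, where the design had named the members alone. Fits were tested on simulated data. Members and gene lists were chosen with earlier results of these data known. Named were Lum, Dcn, Col1a1 and Col3a1, up to 8 called members per averaged comparison and 6 per single sex, the 3 highest and lowest by level and by co-variation, up to 3 called genes per other list, and examples of each class.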

Additional observations from a re-analysis of the deposited data

Results flagged for a closer look

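Values far from the other 4 libraries of their group were found in 8 of 144 groups of 5 over 12 genes described in full, and in 31 of 624 groups over all members, where chance flags about 1 in 20. In the Het fluoxetine males replicate 1 had 790.291 normalized counts of Dcn and 740.898 of Col1a1, above the others at 293 to 409 and 279.6 to 404. In the Het fluoxetine females replicate 1 had 610.412 of Col16a1, 512.666 of Col1a1 and 454.817 of Col3a1, above the others at 486 to 515, 282 to 334 and 219 to 270.1. These 2 libraries were also 2 of the 3 Het fluoxetine libraries with glucocorticoid scores below 0. They had the highest scores of the leptomeningeal markers outside the members as well, at 0.4336 in the male and −0.0172 in the female. The other Het fluoxetine libraries had −0.3875 to −0.0527 on that score. The part of either score was not tested. Replicate 3 of the WT lithium females had 873.854 of Dcn against 351 to 451. Replicate 1 of the WT vehicle males had 67.326 of Lum against 94.9 to 101. Replicate 2 of the Het vehicle females had 28.0008 of Col10a1 against 0.957 to 5.92.

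The fluoxetine difference of 3 members differed between genotypes by the interaction test of limma. The interaction was −0.4602 for Col4a2 (adjusted p = 0.0313), −0.392 for Col12a1 (adjusted p = 0.0431) and −0.4311 for Col16a1 (adjusted p = 0.0313). All 3 calls were lost with either score as a covariate and without either set of libraries of high region scores. In fits that left out 1 library, Col4a2 kept the call in 32 of 40, Col16a1 in 31 and Col12a1 in 16.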

How the results depend on the processing

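Of 50 gene results, those with the smallest adjusted p in each comparison, none reversed under any alternative and 6 kept their call under all 11. Among the other genes that fell with fluoxetine in Het mice, Dcn turned to 0.05 with the leptomeningeal score as covariate and Bgn and Col22a1 to 0.02 and 0.01 with the glucocorticoid score. The average fall with fluoxetine in Het mice (32 calls) gave 15 with the leptomeningeal score as covariate, 3 with the glucocorticoid score and 14 without libraries of high olfactory bulb score (a choice made after seeing the data, as were the glucocorticoid covariate and the omission of libraries of high striatal or choroid plexus score). Het males (19) gave 0 with the glucocorticoid score, 0 without olfactory bulb libraries and 6 with only the groups compared. Het females (16) gave 1 with the leptomeningeal score, 2 with the glucocorticoid score and 8 with only the groups compared. WT mice on fluoxetine (0) gave 3 with the leptomeningeal score and 1 with only the groups compared. Het against WT on fluoxetine (14) gave 7 with the leptomeningeal and 6 with the glucocorticoid score, 2 without olfactory bulb libraries, 0 without striatal or choroid plexus libraries and 2 with only the groups compared. Lithium in Het mice (10) gave 1 with the leptomeningeal score, which was not among the 10. It gave 2 with the glucocorticoid score, both among the 10, and 3 without olfactory bulb libraries, of which 2 were among the 10. In Het males (1) lithium gave 0 with either score, 0 without either set of libraries, 0 by edgeR and 4 by DESeq2. In Het females (1) it gave 0 with the leptomeningeal score, 0 with only the groups compared and 5 without olfactory bulb libraries. Lithium in WT mice (0) gave 1 with the glucocorticoid score, 1 with only the groups compared and 1 by DESeq2. Fluoxetine against lithium in Het mice (8) gave 5 without olfactory bulb libraries, 4 without striatal or choroid plexus libraries and 5 with only the groups compared. The genotype by fluoxetine interaction (3) gave 0 with either score, 0 without either set of libraries, 1 with only the groups compared and 8 by DESeq2. The cause of these changes was not tested. The shares of all genes called under these settings are not given, so the counts are not read as results about the members alone. Leaving out each library in turn gave 26 to 33 for fluoxetine in Het mice, 9 to 26 in males (lowest without Het fluoxetine male replicate 3) and 6 to 25 in females (lowest without Het vehicle female replicate 3), 7 to 24 for Het against WT on fluoxetine, 2 to 13 for lithium in Het mice, 0 to 5 in males and 0 to 2 in females, 5 to 13 and 1 to 2 for fluoxetine against lithium in Het and WT mice, and 0 to 14 for the interaction. Replicate numbers did not pair the libraries: r between libraries with the same number was −0.276 to 0.295, and 13 of 60 libraries correlated best with their own number. With the replicate block the interaction gave 5 calls and lithium in Het females 0, and other counts of calls moved by less than 1.5 times.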
